A study of Mus musculus with 36 samples.

Results

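The lysosomal genes described here are 47 genes of the mouse count table that encode lysosomal hydrolases, their helper proteins, proteins of the lysosomal membrane and the transcription factor Tfeb. They were chosen by name, and 47 of 47 were found among the 54532 genes of the table. RNA-seq was examined in bone marrow-derived macrophages (BMDMs) of female C57BL/6 mice aged 13 to 17 weeks, grown for 7 days with the macrophage growth factor MCSF. WT cells came from Bmal1 flox/flox mice without Cre (n = 3 per group), and KO cells from flox/flox littermates carrying Cre under the myeloid LysM promoter (n = 6 per group), so floxed alleles were shared by both genotypes. Cells of each genotype were treated for 6 h with vehicle, with 100 µM CCM (Core Circadian Modulator, a small molecule that binds the PASB domain of the clock transcription factor BMAL1), with 100 nM LPS (a bacterial cell wall component that activates macrophages), or with LPS and CCM together. This gave 36 libraries of 13469262 to 28288923 counted read pairs.

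Lysosomes are acidic organelles in which cathepsins cut proteins, glycosidases and sulfatases take sugar chains apart, and lipases and their activator proteins degrade lipids. Macrophages hold many of them because they digest what they engulf. TFEB is a transcription factor that raises lysosomal genes by binding E-box sequences near their start sites, and BMAL1, with its partner CLOCK, also binds E-boxes (CACGTG).

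The deposited values are raw counts. Levels are given as CPM, counts relative to library size as scaled by the TMM method, and, between genes, as TPM, which also corrects for gene length. Differences are log2 fold changes with standard error (SE), and a gene was called changed at an adjusted p of at most 0.05 in edgeR's quasi-likelihood test over all genes. The RNA is that of whole cultures, so fewer cells with a transcript and less of it per cell cannot be told apart. The labels tie no library to a single mouse, so p-values measure the spread between these libraries, part of which may be technical.

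The macrophage label was checked with marker lists. The 6 macrophage markers summed to 2302 to 7682 CPM per library (3360 to 3549 CPM with vehicle and 6837 to 7193 CPM with LPS in WT), and B cell, T cell, erythroid and dendritic cell markers summed to at most 11.62 CPM. Neutrophil markers summed to 424.6 to 1201 CPM and fibroblast markers to 295.3 to 1659 CPM over all libraries. Arntl, the gene of BMAL1, was at 7.27 to 12.9 CPM in the 12 WT libraries and at 2.13 to 10.7 CPM in the 24 KO libraries, so the ranges overlapped. In each of the 4 KO groups the library of replicate 6 stood apart, with a median correlation to the other 5 of 0.913 to 0.949, while that of the other libraries was 0.976 to 0.995. Counts of called genes in KO cells are therefore given with and without it.

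In unstimulated WT macrophages some lysosomal genes were among the most abundant of all transcripts, while others lay far lower. The counts of all the lysosomal genes made up 6.58% ± 0.281 (SD, n = 3) of all counts of a library. Cathepsins alone held 3.515 to 3.88% and the genes of lipid breakdown 1.628 to 1.755%. Per length, Psap, which encodes the precursor of the saposins that present lipids to lysosomal enzymes, was at 12830, 12540 and 13850 TPM in the 3 libraries. The cysteine protease gene Ctss was at 13030, 12190 and 13970 TPM, and the aspartic protease gene Ctsd at 11990, 10650 and 11480 TPM. Psap and Ctss thus overlapped, and the Ctsd libraries lay below all those of both. Psap ranked 6, Ctss 7, Ctsd 9 and Ctsb 15 by mean TPM among 24138 genes above 0. At the other end stood Ctse, a cathepsin at 4.38 TPM, and the sulfatase Arsb at 9.23 TPM. The highest member of each remaining class was Cd68, a macrophage membrane glycoprotein, at 2931 ± 135.2 TPM (SD, n = 3), the hexosaminidase subunit Hexa at 1384 ± 47.31, the acetyltransferase Hgsnat at 314.7 ± 4.047 and the peptidase Tpp1 at 207.1 ± 16.21. Tfeb itself was at 41.57 ± 2.464 TPM.

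LPS lowered most lysosomal genes in WT macrophages and raised a small set. Of the 47, 37 were lower and 7 higher with LPS than with vehicle, where 63% of all 14501 genes tested were called, 32.4% lower and 30.6% higher. The median log2 fold change was -0.41 over the 47 and -0.05 over all genes tested. The libraries of the 2 groups did not overlap for 45 of the 47, a count for which no share over all genes was computed. In 1 fit over all 36 libraries, which shares the spread of the KO groups, 23 of the 47 were called, 20 lower and 3 higher, with 5550 of the 14501 genes. By share of counts, the lysosomal genes went from 6.58% in vehicle to 3.89% ± 0.103 (SD, n = 3) with LPS. This share is of library totals without TMM scaling, and the most abundant genes weigh most in it. Neutrophil markers moved with LPS too. Their sum was 647.3 to 699.8 CPM with vehicle and 514 to 561.9 CPM with LPS, without overlap, and of 7 markers tested 5 fell and 2 rose (edgeR). Fibroblast markers summed to 475.9 to 1351 CPM and 513.6 to 728.9 CPM, and 0 of 5 tested passed. The part of these markers in the result was not tested.

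**Figure D1:**
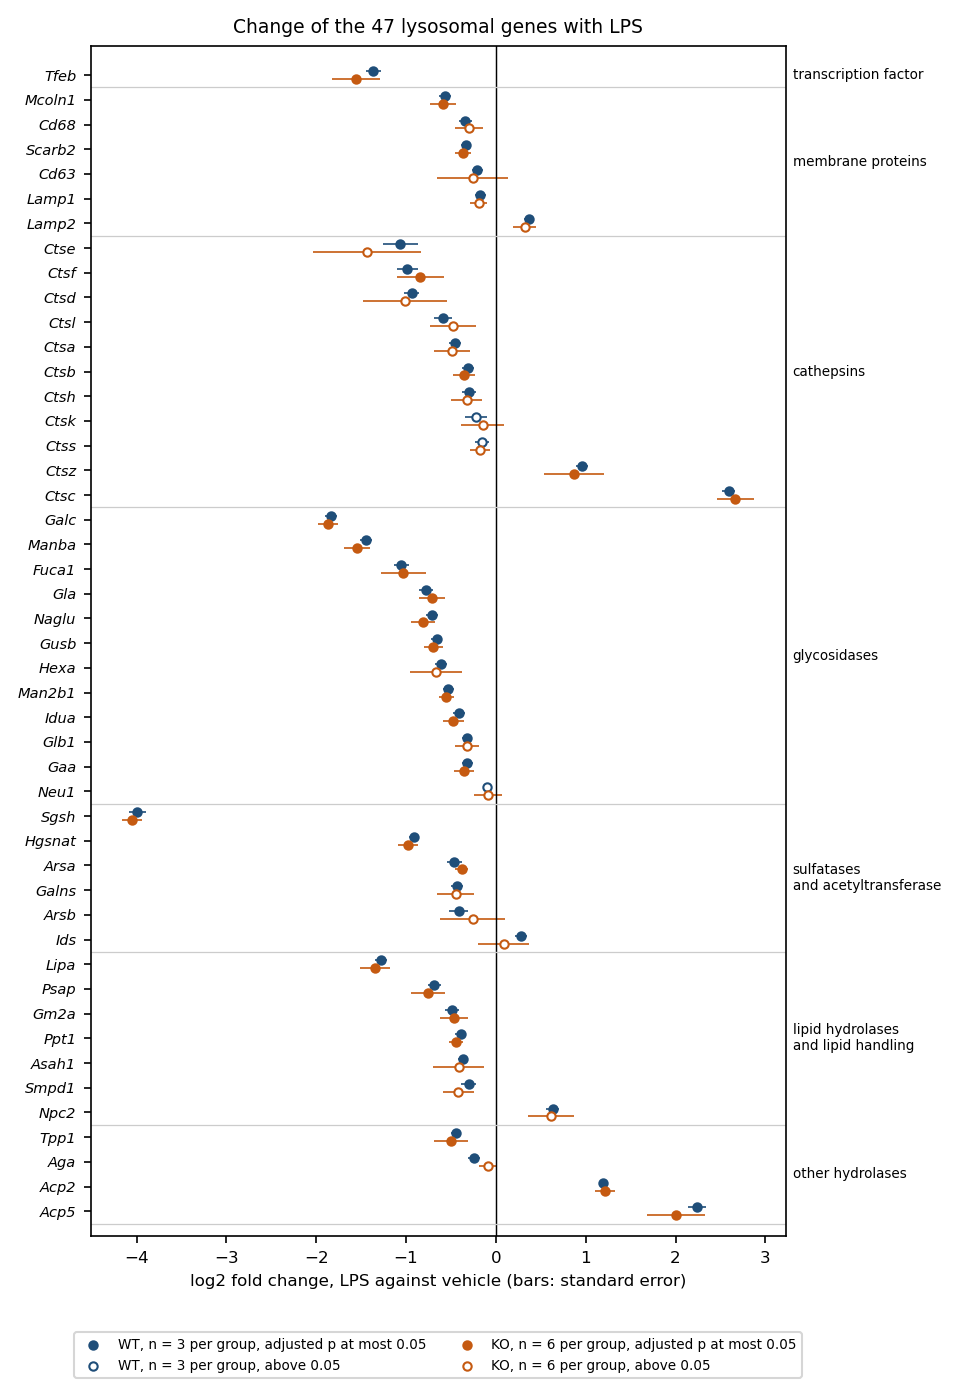
Change of each of the 47 lysosomal genes with LPS, as log2 fold change against vehicle (x axis, bars show SE), ordered by class. Blue is WT and orange KO, and filled points passed an adjusted p of 0.05 in edgeR. Points lie left of 0 for 40 genes in each genotype, with Sgsh near -4 and Ctsc and Acp5 above 2, and with scaling by total counts alone, Lamp2 and Ids in WT move to -0.05 and -0.14.

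Sgsh, which encodes the sulfohydrolase that acts on heparan sulfate, had the lowest value of the 47 in this comparison. It lies at chr11:119343425-119355536 on the minus strand (GRCm38). It was at 55.57, 49.25 and 57 CPM with vehicle and at 3.42, 3.28 and 3.45 CPM with LPS, so the groups were far apart. The log2 fold change was -3.99 ± 0.0955 (SE, edgeR, adjusted p = 2.66e-10), a level 15.9-fold lower. Other steps of heparan sulfate breakdown moved the same way by less: Hgsnat fell by 0.91 and Naglu, the glucosaminidase that follows it, by 0.71 on the log2 scale, whereas Ids, the iduronate sulfatase, rose by 0.28, a direction that turned to -0.14 when libraries were scaled by total counts alone. The interval of Sgsh overlaps that of Card14 on the other strand, and since how strand was treated in counting is not given in the sources used here, reads of the pair cannot be told apart. Such an overlap with another gene was found for 21 of the 47.

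Among the 12 glycosidases, 11 fell and none rose, beside 32.4% and 30.6% of all genes tested. Galc, which removes galactose from myelin-type lipids, was at 172.7, 171.1 and 183.2 CPM with vehicle and at 46.27, 48.66 and 52.05 CPM with LPS. The groups did not overlap, and the log2 fold change was -1.84 ± 0.0667 (SE, edgeR, adjusted p = 5.21e-09). The mannosidase gene Manba was at 61.74, 58.39 and 55.86 CPM with vehicle and at 22.55, 20.84 and 20.93 CPM with LPS, again without overlap. Its log2 fold change was -1.45 ± 0.0676 (SE, edgeR, adjusted p = 3.44e-08). Hexa, which trims gangliosides, was at 765.3 to 888.1 CPM with vehicle and at 522.9 to 553.1 CPM with LPS, a fall of 0.61 on the log2 scale. The fucosidase Fuca1 fell by 1.05 and the galactosidase Gla by 0.78, and the sialidase Neu1 had a log2 fold change of -0.09 and did not pass (edgeR, adjusted p = 0.144).

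Of the 6 sulfatases and acetyltransferase genes, 5 fell and Ids rose, where 32.4% of all genes tested fell and 30.6% rose. Among the 7 genes of lipid breakdown, 6 fell and Npc2, which carries cholesterol out of the lysosome, rose by 0.63 on the log2 scale. The acid lipase gene Lipa fell by 1.28. Psap was at 11010, 9912 and 10990 CPM with vehicle and at 6502, 6371 and 6902 CPM with LPS. The groups were apart, and its log2 fold change was -0.69 ± 0.0705 (SE, edgeR, adjusted p = 1.45e-05).

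The cathepsins were split. Of 11, 7 fell, 2 rose and 2 did not pass, where 32.4% of all genes tested fell and 30.6% rose. Ctsc, the dipeptidyl peptidase that activates serine proteases of granules, lies at chr7:88278085-88310888 on the plus strand. It was at 263.4, 295.3 and 270 CPM with vehicle and at 1557, 1748 and 1681 CPM with LPS. Every LPS library was thus above every vehicle library, and the log2 fold change was 2.60 ± 0.072 (SE, edgeR, adjusted p = 7.54e-10), a level 6.04-fold higher. Ctsz, a carboxypeptidase, was at 1189, 1025 and 1041 CPM with vehicle and at 2103, 2108 and 2109 CPM with LPS, a log2 fold change of 0.96 ± 0.0671 (SE, edgeR, adjusted p = 7.59e-07). Ctse fell by 1.06, Ctsf by 0.99 and Ctsd by 0.94 on the log2 scale. Ctss, the most abundant cathepsin, was at 5539, 4769 and 5487 CPM with vehicle and at 4662, 4456 and 5001 CPM with LPS. These ranges overlapped, and its log2 fold change of -0.16 ± 0.0786 (SE) did not pass (edgeR, adjusted p = 0.109). Ctsk, best known from osteoclasts, was at 36.98 to 47 CPM with vehicle and at 31.28 to 41.79 CPM with LPS, and did not pass either (edgeR, adjusted p = 0.14).

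Both lysosomal acid phosphatases rose. Acp5, the tartrate-resistant acid phosphatase, was at 81.64, 75.29 and 96 CPM with vehicle and at 375.8, 382.4 and 431.9 CPM with LPS. The groups did not overlap, and the log2 fold change was 2.24 ± 0.0993 (SE, edgeR, adjusted p = 2.35e-08), a level 4.71-fold higher. Acp2 was at 139.9, 144.5 and 146.5 CPM with vehicle and at 324.6, 327.3 and 332.2 CPM with LPS, a log2 fold change of 1.20 ± 0.0526 (SE, edgeR, adjusted p = 2.18e-08). Acp5 also marks osteoclasts. The 6 osteoclast markers summed to 148.3 to 192.3 CPM with vehicle and to 126 to 138.7 CPM with LPS in WT, without overlap. Of 5 tested, Calcr was called higher and Nfatc1 lower with LPS (edgeR). In single libraries Oscar had at most 10 counts and Calcr at most 59, with 0 in 4 and 15 libraries, whereas Ocstamp had 11 to 76, Dcstamp 289 to 883, Itgb3 570 to 3477 and Nfatc1 222 to 2021 counts. Their part in the change of Acp5 was not tested. Tpp1 fell by 0.44 and the glycosylasparaginase Aga by 0.24.

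Every membrane protein gene of the list was called, where 63% of all genes tested were. The log2 fold changes ran from -0.57 for Mcoln1 to 0.36 for Lamp2. Lamp1, a heavily glycosylated protein that lines the lysosomal membrane, was at 1611, 1502 and 1588 CPM with vehicle and at 1366, 1379 and 1415 CPM with LPS. The groups did not overlap, but the log2 fold change was only -0.17 ± 0.0566 (SE, edgeR, adjusted p = 0.0233). Cd68 was at 1207, 1013 and 1064 CPM with vehicle and at 866.1, 823.2 and 890.6 CPM with LPS, a log2 fold change of -0.34 ± 0.0726 (SE, edgeR, adjusted p = 0.00212). The calcium channel gene Mcoln1 fell by 0.57. Lamp2, the relative of Lamp1, went the other way, from 563 to 581.3 CPM with vehicle to 728 to 739.1 CPM with LPS, and was called higher by 0.36 on the log2 scale, which became -0.05 when scaled by total counts alone.

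Tfeb fell with LPS. It lies at chr17:47737030-47792419 on the plus strand and was at 78.74, 66.2 and 65.26 CPM with vehicle and at 26.56, 27.14 and 27.59 CPM with LPS. Every LPS library lay under every vehicle library, and the log2 fold change was -1.36 ± 0.0814 (SE, edgeR, adjusted p = 2.28e-07). Of 9 relatives of Tfeb and members of its kinase complex, 4 rose and 3 fell here, beside 30.6% and 32.4% of all genes tested. Mitf and Tfe3, transcription factors of the same family, rose by 0.83 and 0.37 on the log2 scale. Rragd, a GTPase of the nutrient-sensing complex on the lysosome, fell by 2.79 and its regulator Flcn by 0.89.

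**Figure D2:**
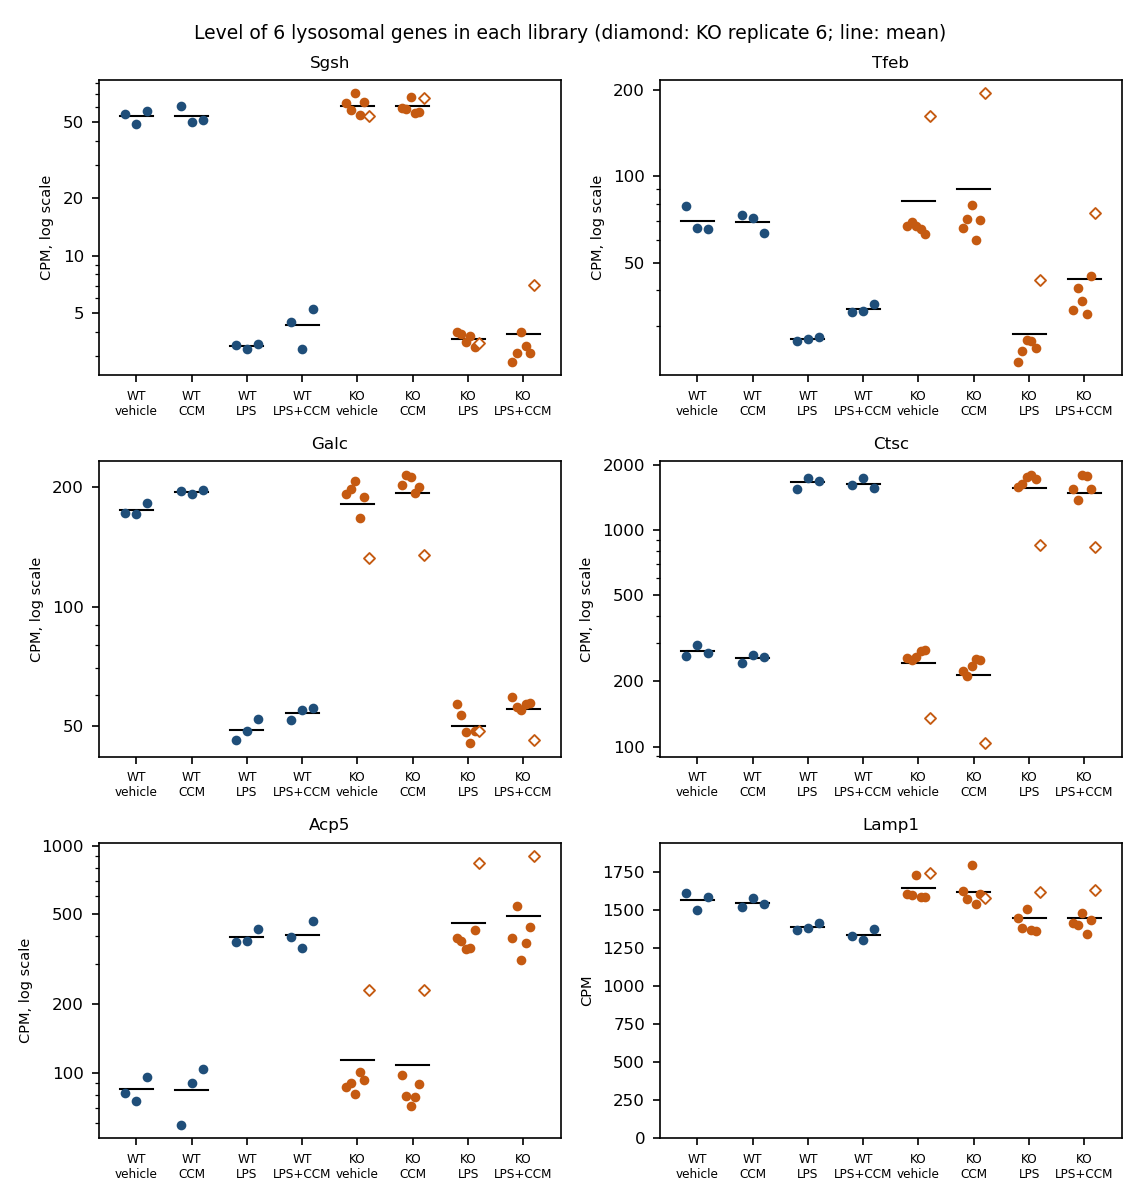
CPM of Sgsh, Tfeb, Galc, Ctsc, Acp5 and Lamp1 in each library (y axis, log scale except for Lamp1) by genotype and treatment (x axis), with a line at the group mean and an open diamond for KO replicate 6. Within each genotype the LPS libraries lie under the vehicle libraries for Sgsh, Tfeb and Galc and above them for Ctsc and Acp5, without overlap.

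Total-count scaling moved the whole comparison. With it, the median over all genes was -0.465 in place of -0.05, and 76% of called genes were lower in place of 51.4%. Of the 47 lysosomal genes, 45 were then called in WT, 40 lower and 5 higher. Ctsc, Acp5, Acp2, Ctsz and Npc2 rose with either scaling.

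The promoters of the lysosomal genes were examined for the E-box, since TFEB and BMAL1 both bind it. RefSeq windows from 250 bases before to 50 bases after a start site (build GRCm38.p6) were matched by symbol for 40 of the 47. CACGTG reads the same on both strands, and 12 of the 40, or 30%, held it, against 8.09% of all 27025 genes with a window. The extended form TCACGTG, which contains CACGTG, was searched on both strands and was held by 10 of the 40, or 25%, against 4.29% of all genes. The 12 genes with an E-box were Arsa, Ctsa, Ctsd, Ctsf, Ctsl, Gaa, Gla, Glb1, Lamp1, Mcoln1, Naglu and Sgsh. The 120 bases before the start site are printed 5′ to 3′ for 6 of them that hold an E-box in this stretch and, for contrast, for Ctsc and Acp2, which rose with LPS and hold none. Capitals mark the E-box, with the T before it or the A after it where present.
Sgsh (chr11:119355511-119355630, minus strand): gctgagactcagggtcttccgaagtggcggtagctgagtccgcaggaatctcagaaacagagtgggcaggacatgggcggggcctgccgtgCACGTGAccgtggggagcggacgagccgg
Lamp1 (chr8:13159041-13159160, plus strand): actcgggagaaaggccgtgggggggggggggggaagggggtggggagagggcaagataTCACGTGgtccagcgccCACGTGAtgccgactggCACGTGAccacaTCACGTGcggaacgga
Mcoln1 (chr8:3500399-3500518, plus strand): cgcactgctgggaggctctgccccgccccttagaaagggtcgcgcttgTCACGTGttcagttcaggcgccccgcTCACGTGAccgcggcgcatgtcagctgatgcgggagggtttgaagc
Naglu (chr11:101069974-101070093, plus strand): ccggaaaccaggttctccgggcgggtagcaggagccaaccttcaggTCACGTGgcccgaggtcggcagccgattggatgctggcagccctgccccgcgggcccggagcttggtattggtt
Glb1 (chr9:114400958-114401077, plus strand): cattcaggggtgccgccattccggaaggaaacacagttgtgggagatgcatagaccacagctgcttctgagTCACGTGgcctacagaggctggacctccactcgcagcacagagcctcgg
Ctsd (chr7:142387828-142387947, minus strand): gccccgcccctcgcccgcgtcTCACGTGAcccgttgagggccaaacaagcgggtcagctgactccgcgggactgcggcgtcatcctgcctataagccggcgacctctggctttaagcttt
Ctsc (chr7:88277965-88278084, plus strand): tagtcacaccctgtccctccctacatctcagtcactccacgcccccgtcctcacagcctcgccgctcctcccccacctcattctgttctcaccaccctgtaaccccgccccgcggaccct
Acp2 (chr2:91202792-91202911, plus strand): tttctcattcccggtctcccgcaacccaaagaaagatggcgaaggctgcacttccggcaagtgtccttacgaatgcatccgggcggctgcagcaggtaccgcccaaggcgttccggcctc

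The Lamp1 stretch holds 4 E-boxes, which begin 61, 45, 28 and 15 bases before the start site, and the Mcoln1 stretch holds 2, at 71 and 45 bases. The single E-box of Sgsh begins 29 bases before its start, that of Glb1 48 bases, that of Naglu 73 bases and the one of Ctsd in this stretch 98 bases. Ctsd has a further E-box 245 bases before its start. In WT macrophages with LPS, 12 of the 12 genes with an E-box were called lower, from -3.99 for Sgsh to -0.17 for Lamp1, with a median of -0.58. Of the 28 without one, 18 were called lower and 7 higher, with a median of -0.37, and these 7 were all the lysosomal genes that LPS raised. For the 10 genes with TCACGTG, all called lower, the median was -0.52, and for the 30 without it, of which 20 were called lower and 7 higher, it was -0.40. Over all genes tested that had a window, 35.9% of 1198 with CACGTG and 34.4% of 9144 without it were called lower, with medians of -0.08 and -0.07. With TCACGTG, 35.6% of 710 were called lower, against 34.4% of 9632 without it. The number of E-boxes did not order the changes, since Lamp1 with 4 had the smallest fall of the 12 and Sgsh with 1 the largest. The 3 windows of Tfeb held no E-box.

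**Figure D3:**
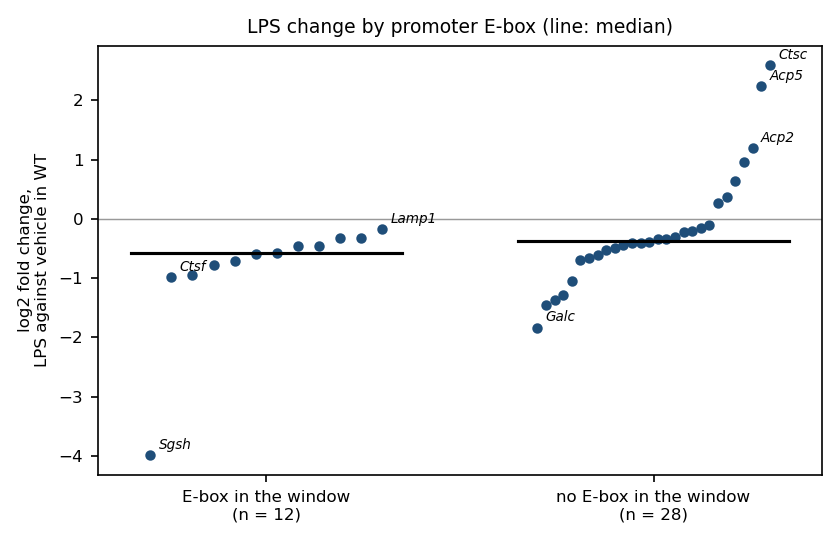
Log2 fold change with LPS against vehicle in WT (y axis) for the 40 lysosomal genes with a RefSeq promoter window, by whether the window holds CACGTG (x axis), where each point is a gene and the line the median. All 12 genes with the motif lie below 0, from Sgsh at -3.99 to Lamp1 at -0.17, and the genes above 0 are in the group of 28 without it.

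In KO macrophages LPS lowered more lysosomal genes than it raised. With all 6 replicates, 26 of 47 were called, 22 lower and 4 higher, where 47.1% of all 13648 genes tested were called, 24.7% lower and 22.4% higher. The median over the 47 was -0.44, against -0.05 over all genes. Without replicate 6, 45 of 47 were called, 39 lower and 6 higher, with 69.4% of genes called (36.9% lower, 32.6% higher), and these 45 included all 26. With the replicate number as a block, 43 were called, 37 lower and 6 higher, with 71.6% of genes called (37.5% lower, 34.1% higher).

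Replicate 6 lay outside the other KO libraries for many lysosomal genes. The lysosomal share of counts was 8.94% in its vehicle library and 6.494 to 6.972% in the other 5, and 5.355% against 3.776 to 4.124% in the others with LPS. Ctsd was at 29940 CPM in its vehicle library, the highest of the group, whose median was 8454 CPM. Ids was at 21.7 CPM, where the group median was 65.55 CPM. Marker sums of this replicate differed as well. With vehicle, macrophage markers were at 2582 CPM in it and at 3328 to 3750 CPM in the other 5, B cell markers at 10.13 against 3.692 to 4.585 CPM, T cell markers at 2.491 against 0.4613 to 1.166 CPM and erythroid markers at 9.483 against 1.913 to 7.226 CPM. Neutrophil markers were at 1155 against 569.8 to 1115 CPM with vehicle and at 1194 against 424.6 to 743.5 CPM with LPS. In all 4 KO groups replicate 6 was the lowest for the macrophage sum and the highest for these others. Their part in the KO results was not tested.

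**Figure D4:**
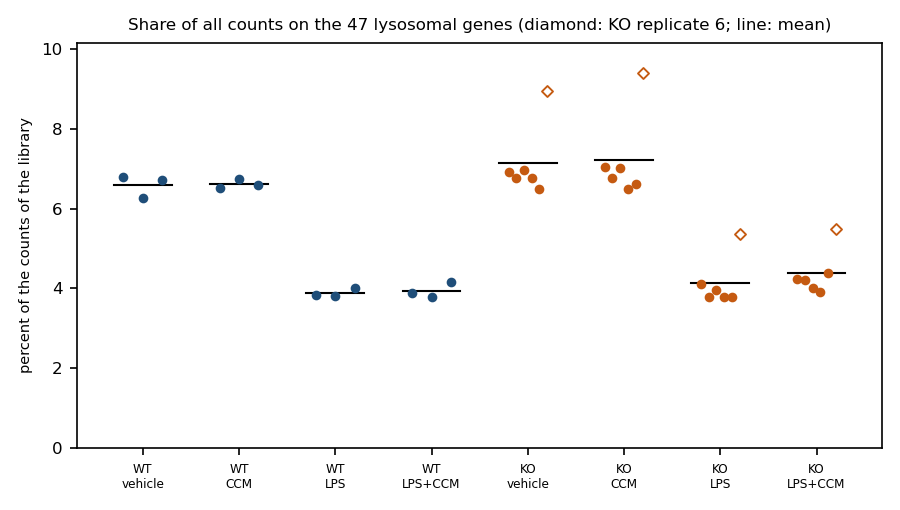
Share of the counts of each library that fell on the 47 lysosomal genes, in percent (y axis, from 0), by genotype and treatment (x axis), with a line at the group mean and an open diamond for KO replicate 6. The WT means are 6.58% with vehicle and 3.89% with LPS, and the diamond is the highest of each KO group.

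Sgsh in KO cells was at 54.16 to 70.86 CPM with vehicle (median 60.73) and at 3.35 to 4.02 CPM with LPS (median 3.69). The 2 groups were far apart, with a log2 fold change of -4.05 ± 0.106 (SE, edgeR, adjusted p = 3.1e-11), or -4.07 ± 0.0904 without replicate 6. Galc was at 132.5 to 207.6 CPM with vehicle (median 191.2) and at 45.26 to 56.8 CPM with LPS (median 48.6), a log2 fold change of -1.87 ± 0.113 (SE, edgeR, adjusted p = 1.87e-08), or -1.94 ± 0.0736 without replicate 6. Manba, at 37.53 to 64.29 CPM with vehicle and 13.29 to 22.26 CPM with LPS, also did not overlap (log2 fold change -1.55 ± 0.147, SE, edgeR, adjusted p = 1.4e-06, and -1.55 ± 0.0785 without replicate 6). Tfeb was at 62.71 to 161.8 CPM with vehicle (median 67.02) and at 22.53 to 43.43 CPM with LPS (median 25.81). These ranges did not overlap either, and the log2 fold change was -1.56 ± 0.271 (SE, edgeR, adjusted p = 0.000332), or -1.42 ± 0.0579 without replicate 6.

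The raised genes in KO were the same 4 that rose most in WT. Ctsc was at 136 to 279.7 CPM with vehicle (median 257.9) and at 850.3 to 1800 CPM with LPS (median 1684), a log2 fold change of 2.67 ± 0.209 (SE, edgeR, adjusted p = 2.18e-07). Acp5 was at 80.51 to 230.8 CPM with vehicle (median 91.19) and at 350.9 to 843.7 CPM with LPS (median 386.5), without overlap, and rose by 2.01 ± 0.324 (SE, edgeR, adjusted p = 0.000176). Acp2, at 112.7 to 156.4 and 237 to 362.9 CPM, rose by 1.22 ± 0.11 (SE, edgeR, adjusted p = 8.79e-07). Ctsz ranged from 977.9 to 3031 CPM with vehicle and from 2032 to 4801 CPM with LPS. These ranges overlapped through replicate 6, the highest library of both groups, and the log2 fold change of 0.87 ± 0.337 (SE, edgeR, adjusted p = 0.0488) became 0.97 ± 0.0547 without it. Without replicate 6, Ctsc was at 2.67 ± 0.0586, Acp5 at 2.06 ± 0.0712 and Acp2 at 1.24 ± 0.0565 (SE), and all 3 were again called (edgeR).

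A number of members did not pass in KO with all replicates. Lamp1 was at 1585 to 1740 CPM with vehicle and at 1361 to 1619 CPM with LPS (log2 fold change -0.19 ± 0.0921, SE, edgeR, adjusted p = 0.107). Cd68 had a log2 fold change of -0.30 ± 0.158 (SE, edgeR, adjusted p = 0.142) and Hexa one of -0.66 ± 0.287 (SE, edgeR, adjusted p = 0.0751). Ctsk had one of -0.15 ± 0.241 (SE, edgeR, adjusted p = 0.664). The biological coefficient of variation was 0.304 in this KO comparison and 0.106 in WT. Psap, Hgsnat and Tpp1, the most abundant of their classes, fell in KO by 0.76, 0.98 and 0.50 on the log2 scale, while Ctss at -0.18 did not pass (edgeR, adjusted p = 0.206). Without replicate 6, Lamp1 at -0.22, Cd68 at -0.34, Hexa at -0.68 and Ctss at -0.23 were called lower, as were Psap at -0.77, Hgsnat at -0.99 and Tpp1 at -0.52. Ctsk at -0.25 (edgeR, adjusted p = 0.253) and Ids at 0.07 (edgeR, adjusted p = 0.489) were the 2 of the 47 that did not pass.

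The genotypes were then compared directly. With vehicle, 0 of 47 lysosomal genes were called between KO and WT, and 0 of 47 had an unadjusted p under 0.05. Of all 14385 genes tested, 0% passed, and 118 were at an unadjusted p under 0.05. Neither was any lysosomal gene called for the difference of the LPS response between genotypes (0% of 15093 genes). Here 0 of 47 and 0.742% of all genes had an unadjusted p under 0.05. For Tfeb the difference of the LPS response, KO minus WT, was -0.17 ± 0.393 (SE) and for Sgsh -0.04 ± 0.148, on the log2 scale. DESeq2 also called 0 of the 47 in both comparisons, with 0.00695% and 0% of genes. Without KO replicate 6, edgeR again called 0 of 47 in both, with 0% of 14313 and of 14985 genes. At an unadjusted p under 0.05 were 1 (Sgsh) and 0 of 47, against 2.86% and 2.06% of all genes. The differences of the LPS response were then -0.05 ± 0.0938 for Tfeb and -0.07 ± 0.138 for Sgsh. Simulated data had the depth of these libraries. Each gene was given a single spread for all libraries compared, estimated with KO replicate 6 included, and libraries were drawn independently. A deviation shared by same-numbered libraries was thus not simulated. In the simulated data, 200 genes drawn at random from all those tested were changed by 1 on the log2 scale. Between the genotypes edgeR recovered 36% of these, and 12% as interactions, so differences of this size could be missed. These rates are over genes of all levels and were not computed for the 47 or without replicate 6.

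CCM alone left the lysosomal genes near their vehicle levels. In WT, 0 of 47 were called with edgeR (0.057% of 14024 genes) and 0 with DESeq2 (1.72% of genes). The log2 fold changes ran from -0.25 to 0.16. An unadjusted p under 0.05 was found for 3, or 6.38%, against 1404 or 10% of all genes tested. These 3 were Galc at 0.14, the membrane receptor Scarb2 at 0.16 and Aga at -0.25. Tfeb was at 73.29, 71.75 and 63.52 CPM with CCM in WT, which overlapped vehicle (log2 fold change -0.03 ± 0.0838, SE, edgeR, adjusted p = 0.938). Lamp1 at -0.03 ± 0.0521, Cd68 at -0.08 ± 0.0678, Ctsk at 0.00 ± 0.121 and Acp5 at -0.02 ± 0.182 did not pass either. Psap, Ctss, Hexa, Hgsnat and Tpp1 lay between -0.05 and 0.03.

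In KO cells with CCM alone, 0 of 47 were called with edgeR (0% of 13799 genes) and 0 with DESeq2 (0.304% of genes). At an unadjusted p under 0.05 (edgeR) were 0 of 47, against 2.41% of all genes. Tfeb was at 60.11 to 194.5 CPM (median 70.73). With the replicate number as a block, 2 were called with 3.11% of genes: Ctsc fell by 0.20 and Scarb2 rose by 0.16 on the log2 scale. Without replicate 6, 0 of the 47 were called with 1.01% of genes, and Tfeb was at 0.06 on the log2 scale.

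Under LPS, 6 of the 47 lysosomal genes were called for CCM in WT macrophages, a share near that of all genes. Of 47, 4 were higher and 2 lower with LPS and CCM than with LPS alone, where 11.9% of all 13579 genes tested were called, 4.15% higher and 7.78% lower. The 6 are 12.8% of the 47, and at an unadjusted p under 0.05 were 13, or 27.7%, against 25.7% of all genes. The median was -0.03 over the 47 and 0.01 over all genes. The share of counts was 3.95% ± 0.193 (SD, n = 3). Its libraries, at 3.793 to 4.164%, spanned the LPS libraries at 3.816 to 4.006%. Neutrophil markers summed to 440.1 to 523 CPM with LPS and CCM, and their part in the result was not tested.

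Tfeb had the largest called change. It was at 26.56, 27.14 and 27.59 CPM with LPS and at 33.56, 34 and 35.81 CPM with LPS and CCM, while vehicle libraries were at 65.26 to 78.74 CPM. The 2 LPS groups did not overlap, and the log2 fold change was 0.35 ± 0.0596 (SE, edgeR, adjusted p = 0.00411). Over 12 alternatives it ran from 0.32 to 0.43 and was called in 11, the exception being the fit over all 36 libraries.

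The other 3 higher genes were Manba, Smpd1 and Lipa. Manba was at 22.55, 20.84 and 20.93 CPM with LPS and at 24.16, 26.83 and 27.17 CPM with LPS and CCM (log2 fold change 0.29 ± 0.0737, SE, edgeR, adjusted p = 0.0313). Smpd1, the acid sphingomyelinase, was at 24.08, 25.37 and 22.26 CPM and at 27.85, 30.91 and 28.21 CPM (0.28 ± 0.0742, SE, edgeR, adjusted p = 0.0345). Lipa was at 789.7, 708.8 and 677 CPM and at 895.9, 847.5 and 801.3 CPM (0.23 ± 0.0637, SE, edgeR, adjusted p = 0.0439). For each of these the groups did not overlap.

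The 2 lower genes were Lamp2 and Ids. Lamp2 was at 728, 739.1 and 732.3 CPM with LPS and at 634.1, 655.5 and 663.1 CPM with LPS and CCM, a log2 fold change of -0.17 ± 0.0397 (SE, edgeR, adjusted p = 0.0199). Ids was at 69.29, 74.42 and 71.62 CPM and at 62, 64.33 and 60.22 CPM, a log2 fold change of -0.21 ± 0.054 (SE, edgeR, adjusted p = 0.0334). The LPS libraries are shared by this comparison and the one of LPS with vehicle, so the 2 sets of values are not independent. Scaled by total counts alone, 6 were called and 0 of them were lower, and the median over all genes was 0.0936. Leaving out single libraries gave 1 to 5 called genes, with 1 called without LPS replicate 2, LPS replicate 3 or LPS+CCM replicate 2, 2 without LPS+CCM replicate 1 and 3 without LPS+CCM replicate 3.

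Same-numbered WT libraries deviated together here. A fit that took the number as a block called 15 of 47, 5 higher and 10 lower, with 23.7% of genes called (10.4% higher, 13.3% lower). These 15 included the 6, and Galc joined the higher ones at 0.14. The added lower ones were Ctsb at -0.11, Ctsh at -0.12, Ctss at -0.11, Ctsz at -0.13, Gla at -0.13, Hgsnat at -0.15, Npc2 at -0.11 and Cd68 at -0.14. Each of these changes was under 0.16 on the log2 scale.

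**Figure D5:**
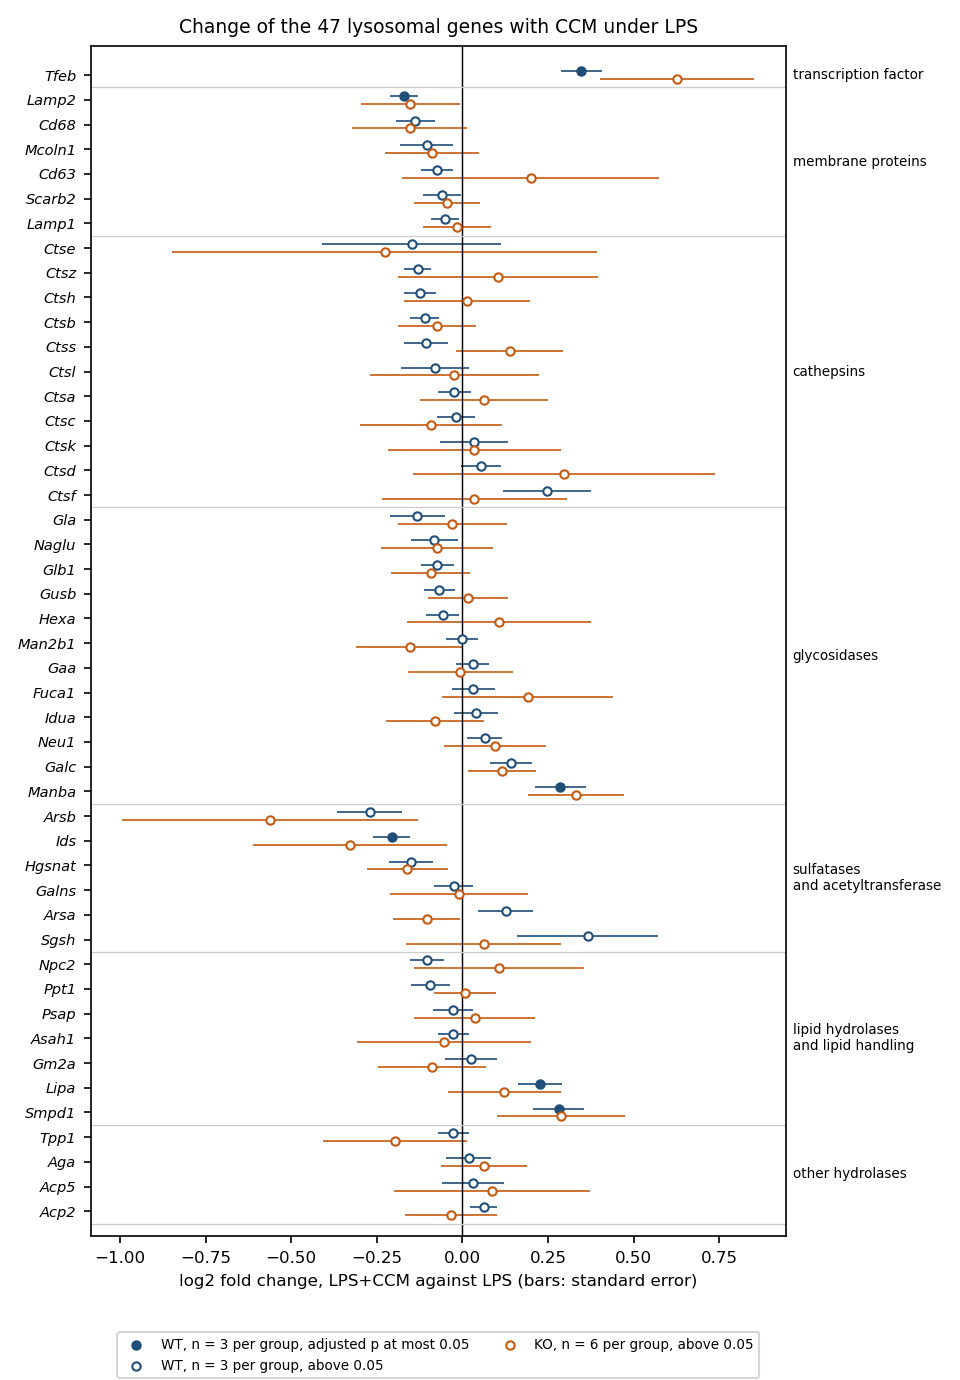
Change of each of the 47 lysosomal genes with CCM under LPS, as log2 fold change of LPS+CCM against LPS (x axis, bars show SE), ordered by class. Blue is WT and orange KO, and filled points passed an adjusted p of 0.05 in edgeR. Filled points are Tfeb, Manba, Smpd1 and Lipa right of 0 and Lamp2 and Ids left of 0, all in WT, and Lamp1 at -0.05 in WT and -0.02 in KO moves to the right of 0 when scaled by total counts alone.

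Sgsh, Ctsc, Acp5 and Acp2 did not pass for CCM under LPS. With LPS and CCM in WT, Sgsh was at 4.52, 3.24 and 5.31 CPM, around the LPS libraries at 3.28 to 3.45 CPM and far under vehicle. Its log2 fold change of 0.37 ± 0.205 (SE) did not pass (edgeR, adjusted p = 0.307). Ctsc was at 1616, 1733 and 1568 CPM, Acp5 at 396, 354 and 465.3 CPM and Acp2 at 346.4, 343.2 and 336.9 CPM. Lamp1, Cd68, Ctsk and Acp5 had log2 fold changes of -0.05 ± 0.0409, -0.14 ± 0.0583, 0.03 ± 0.0992 and 0.03 ± 0.0905 (SE). Psap at -0.03, Ctss at -0.11, Hexa at -0.06, Hgsnat at -0.15 and Tpp1 at -0.03 did not pass either.

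Whether CCM acted differently with and without LPS was tested by an interaction in the 12 WT libraries. Here 0 of 47 passed with edgeR (2.09% of 14747 genes), 7 or 14.9% had an unadjusted p under 0.05 against 14% of all genes, and DESeq2 called 2, with 688 of all genes. For Tfeb the effect of CCM under LPS minus that without it was 0.36 ± 0.111 (SE, edgeR, adjusted p = 0.127).

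In KO macrophages under LPS, 0 of 47 lysosomal genes passed for CCM (edgeR, 0.112% of 13386 genes). DESeq2 called 0 of 47, with 1.49% of all genes. At an unadjusted p under 0.05 (edgeR) were 2, or 4.26%, against 7.99% of all genes. These 2 were Tfeb and Manba, both higher. With the replicate number as a block, the same 2 were called, with 777 of 13386 genes. In this comparison 4 of 6 same-numbered pairs had a correlation over 0.1. Tfeb was at 22.53 to 43.43 CPM with LPS (median 25.81) and at 32.97 to 74.44 CPM with LPS and CCM (median 38.82). The groups overlapped only through replicate 6 of the LPS group, and the log2 fold change was 0.63 ± 0.225 (SE, edgeR, adjusted p = 0.425). Without replicate 6, Tfeb was the 1 lysosomal gene called, at 0.59 ± 0.104 (SE, edgeR, adjusted p = 0.0208), with 1.27% of genes called. Manba was then at 0.33, Smpd1 at 0.27, Lipa at 0.15, Lamp2 at -0.13 and Ids at -0.31 on the log2 scale, and none of these passed.

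The effect of CCM under LPS was not shown to differ between KO and WT for any lysosomal gene. In the test of this difference over 18 libraries, 0 of 47 passed with edgeR (0% of 14546 genes) and DESeq2 called 0, with 0% of genes. At an unadjusted p under 0.05 (edgeR) were 0 of 47, against 0.495% of all genes. For Tfeb the difference, KO minus WT, was 0.30 ± 0.336 (SE) on the log2 scale. Without KO replicate 6, 0 of 47 passed (0% of 14401 genes). An unadjusted p under 0.05 was found for 1 (Sgsh), or 2.13%, against 1.3% of all genes. The difference for Tfeb was then 0.26 ± 0.144 (edgeR, adjusted p = 0.961). Of 200 simulated interactions of 1 on the log2 scale, 0% were recovered at the spread estimated with KO replicate 6 included. Recovery without this replicate was not computed. Manba at 0.33, Smpd1 at 0.29 and Lipa at 0.12 in KO stood beside 0.29, 0.28 and 0.23 in WT. Lamp2 at -0.15 and Ids at -0.33 in KO stood beside -0.17 and -0.21.

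Other genes of the lysosomal pathway were read from a list of 53 that was chosen with earlier results of these data known, and those named are examples. Of 50 tested, 20 rose and 20 fell with LPS in WT, beside 30.6% and 32.4% of all genes. The V-ATPase is the pump that acidifies the lysosome, and of its 17 subunit genes 8 rose and 5 fell with LPS in WT, with Atp6v1e1 at 1.47 and Atp6v0d2 at -2.15 on the log2 scale. Of 6 genes of mannose 6-phosphate sorting, which delivers new hydrolases, 2 rose and 3 fell. The receptor M6pr rose by 1.12 and the sorting receptor Sort1 fell by 1.61. Of 15 other lysosomal enzymes and carriers, 4 rose and 9 fell, among them the phospholipase Pla2g15 by 2.05 and the sialic acid carrier Slc17a5 by 1.91. Of 6 cathepsin inhibitors 3 were tested and 2 rose, with Cst7, an inhibitor of cathepsins in immune cells, at 5.39.

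In KO, 12 of the 50 were higher and 13 lower with LPS, beside 22.4% and 24.7% of all genes. The list gave 4 V-ATPase genes higher and 4 lower, 2 and 2 of mannose 6-phosphate sorting, 2 and 5 of the other enzymes, 2 and 0 of the inhibitors, and 2 and 2 of the Tfeb relatives. Without replicate 6, a count added after the data were seen, 21 were higher and 22 lower, beside 32.6% and 36.9% of all genes. With CCM under LPS in WT, 3 of the 50 rose and 5 fell, beside 4.15% and 7.78% of all genes. Sort1 rose by 0.54, Pla2g15 by 0.37 and Npc1 by 0.19. Among those that fell were Cst7 by 0.68, Tmem192 by 0.28, Atp6v1d by 0.24 and Atp6v1e1 by 0.22. For CCM under LPS in KO, 0 of the 50 passed with edgeR, with or without replicate 6.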

How the data were processed

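RNA-seq counts of 36 BMDM libraries were analysed. Per the labels and the submitters' processing notes, the authors used fastp for trimming, HISAT2 (2.0.5) for alignment to mm10 and featureCounts (1.5.0-p3) for counting per gene, and the deposited values are raw counts. The strand setting is not given in the sources used here.

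Each of 10 comparisons was fitted on its own libraries with edgeR 4.0.16 in R 4.3.3 (filterByExpr, TMM, quasi-likelihood test), with Benjamini-Hochberg adjustment over all genes tested, and the 47 genes passed the filter in each. TPM used the deposited gene lengths. The 47 genes, the pathway and marker lists and the tests were chosen with earlier results of these data known. Genes given with full statistics were those with the largest called changes, the most abundant of each class and a fixed set with Lamp1, Cd68, Ctsk, Acp5 and Tfeb, and others were named for their role after values were seen. Scripts were tested on simulated data, in which 0 to 11.1% of calls were false at the adjusted p of 0.05. The 0 was for the genotype by CCM interaction, in which 0% of changes were recovered. In WT, false calls were 8.22% for LPS, 10.2% for CCM and 8.33% for LPS+CCM against LPS. In KO they were 1.8%, 4.6% and 8.65% in the same order.

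The libraries held 13469262 to 28288923 counts (median 19951421), and all 72 replicate pairs differed beyond counting noise (chi-square per degree of freedom 4.34 to 371). Same-numbered libraries deviated together in every pair for LPS in KO (r of 0.323 to 0.893), CCM in KO (0.38 to 0.923) and LPS+CCM against LPS in WT (0.192 to 0.417). For differently numbered libraries the median r was 0.244, 0.314 and -0.169 in the same order. The replicate number was taken from the sample titles. Alternatives were RLE and total-count scaling, no filter, DESeq2 1.42.0, the replicate block, 1 fit over all 36 libraries and leaving out each replicate.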

Additional observations from a re-analysis of the deposited data

Results flagged for a closer look

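Of 65 sets of 6 KO libraries, 34 held a value whose gap to the nearest other library, relative to the range, was above Dixon's 95% critical value for 6 samples. Chance alone gives about 1 in 20 groups. Replicate 6 was the distant library in 33, and these sets are not independent because they share that library.

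With vehicle, replicate 6 was highest for the share of counts on lysosomal genes (8.94%) and for Acp5 (230.8 CPM), Cd68 (1481 CPM), Ctsz (3031 CPM), Hexa (1907 CPM), Psap (17500 CPM), Smpd1 (48.62 CPM) and Tfeb (161.8 CPM). It was lowest for Ctsc (136 CPM), Lamp2 (388.3 CPM) and Tpp1 (157.3 CPM). With CCM, where only the share and Tfeb were examined, it was highest for the share (9.404%) and for Tfeb (194.5 CPM).

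With LPS it was highest for the share (5.355%), Acp5 (843.7 CPM), Cd68 (1301 CPM), Ctsz (4801 CPM), Hexa (1223 CPM), Psap (10510 CPM), Smpd1 (36.54 CPM) and Tfeb (43.43 CPM). It was lowest for Acp2 (237 CPM), Ctsc (850.3 CPM), Ids (27.68 CPM), Lamp2 (513 CPM) and Tpp1 (128.9 CPM).

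With LPS and CCM it was highest for the share (5.487%), Ctsz (5136 CPM), Psap (10450 CPM), Sgsh (7.015 CPM) and Tfeb (74.44 CPM), and lowest for Galc (46.27 CPM) and Hgsnat (107 CPM). In the same group Ctss was highest in replicate 5 (8239 CPM).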

How the results depend on the processing

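Of the 47 lysosomal genes, LPS changed 44 in WT, and this became 23 in 1 fit over all 36 libraries and 42 to 46 when single libraries were left out. In KO the 26 called became 40 with total counts alone, 43 with the replicate block and 21 to 45 when replicates were left out, the highest without replicate 6. The 6 called for LPS+CCM against LPS in WT became 15 with the block, 0 in the fit over all libraries and 1 to 5 without single libraries. The 0 called for LPS+CCM against LPS in KO became 2 with the block (Tfeb at 0.60, adjusted p = 0.00541, and Manba at 0.34, adjusted p = 0.046, edgeR, with 777 of 13386 genes called), where 4 of 6 same-numbered pairs had a correlation over 0.1, and 0 to 1 when replicates were left out. The 0 called for CCM in KO became 2 with the block, and the 0 for the LPS by CCM interaction became 1 with total counts, 1 without the filter and 2 with DESeq2. The cause of these shifts was not tested. The block changed the other counts by less than 1.5 times.

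Directions turned with total counts alone for LPS in WT (Ids -0.137, Lamp2 -0.0481), for Lamp1 under LPS+CCM against LPS (0.0278 in WT, 0.0163 in KO) and for Cd68 between genotypes (-0.02079). With the block they turned between genotypes for Tfeb (-0.0483), Cd68 (-0.0211) and Ctsk (-0.00736). Some log2 fold changes near 0 crossed it when single libraries or replicates were left out. For CCM in WT, Acp5 ran from -0.203 to 0.188, Tfeb from -0.0723 to 0.0615 and Ctsk from -0.118 to 0.102, and for CCM in KO Ctsk ran from -0.0636 to 0.0013. For LPS+CCM against LPS in WT, Ctsk ran from -0.0668 to 0.13 and Acp5 from -0.0817 to 0.116, and in KO Ctsk ran from -0.0416 to 0.156. Between genotypes Tfeb ran from -0.0767 to 0.357 and Cd68 from -0.0464 to 0.146, each lowest without KO replicate 6. None of the turned values passed the test.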
